A study of Mus musculus with 3 samples.

Results

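The cells described here are CD4+CD8+ double positive (DP) thymocytes in which transcripts of Dusp5 and Snx18 were counted. They were picked out of single-cell RNA libraries of the thymus of female mice of 4 weeks. Each genotype was sequenced as 1 library: p53+/-, p53 AD/- and p53-/-, all germline alterations of p53. By these labels each genotype carries an altered or missing p53 allele. The design text speaks of WT mice where the sample label reads p53+/-, and "AD" is not spelled out in the labels. The background is given as 50% BALB/C and 50% C57BL6, C57BL7 and C57BL8 in the order above. A cell belonged to the set when it had at least 500 genes and under 10% mitochondrial counts, at least 1 unique molecular identifier (UMI, 1 counted transcript molecule) of Rag1 and at least 1 of Cd8a and Cd8b1 together. It also had at least 2 UMIs of Dusp5 and Snx18 together, none of the cycling genes Mki67 and Top2a, at most 1 of the selection genes Itm2a, Cd69 and Cd5, and none of the maturation genes Ccr7, Klf2, S1pr1 and Ms4a4b. Of 25077 deposited barcodes 23864 were kept and 1458 met the rule, 289 in p53+/-, 52 in p53 AD/- and 1117 in the p53-/- library.

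DP thymocytes are the stage at which the T cell receptor alpha locus is rearranged by the Rag1 and Rag2 recombinase. Cells whose receptor then binds self peptide on MHC are signalled through the ERK kinase cascade and are selected, while most others die. Dusp5 encodes a nuclear phosphatase that inactivates ERK and is itself induced by ERK signalling, so it acts as a feedback brake. Snx18 encodes a sorting nexin that bends membranes in endocytosis and autophagosome formation. Rag1 marks the DP stage, Slc7a11 encodes the cystine importer of the xCT antiporter, and Ly6d encodes a surface protein anchored by a lipid and found on early lymphocytes and DP cells.

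The stretches upstream of both genes are shown because 2 genes are counted together here and their promoters differ in sequence motifs. They come from RefSeq, build GRCm38.p6, are written 5′ to 3′ along the gene's strand, and end just before the annotated gene. Capitals mark matches to the motifs searched on both strands.

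Dusp5, chr19:53528895-53529108, plus strand: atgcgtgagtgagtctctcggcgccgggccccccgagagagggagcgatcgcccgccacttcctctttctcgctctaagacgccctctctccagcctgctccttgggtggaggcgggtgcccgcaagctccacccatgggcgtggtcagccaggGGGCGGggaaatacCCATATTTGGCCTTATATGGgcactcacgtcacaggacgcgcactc
Snx18, chr13:113618565-113618814, minus strand: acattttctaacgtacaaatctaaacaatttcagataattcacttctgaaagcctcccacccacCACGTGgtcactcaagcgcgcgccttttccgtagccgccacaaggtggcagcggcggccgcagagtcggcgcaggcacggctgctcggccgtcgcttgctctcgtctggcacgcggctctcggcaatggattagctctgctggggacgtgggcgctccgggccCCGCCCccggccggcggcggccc

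The Dusp5 stretch held 1 SP1 box (GGGCGG) and 2 CArG boxes that adjoin each other; the CArG box is the motif of serum response factor, which drives genes induced by ERK signalling. The Snx18 stretch held 1 E-box (CACGTG) and 1 SP1 box on the other strand. Over the 300 bases around the start in 32851 RefSeq promoters, a CArG box was found in 1.63%, the E-box in 7.15% and the SP1 box in 35.7%. The AP-1 motif TGANTCA, the CRE TGACGTCA, the EGR1 motif GCGTGGGCG, the ROR motif AGGTCA and a p53 half-site were not matched in either window. Those motifs occurred in 7.81%, 1.79%, 0.612%, 16.3% and 8.36% of promoters. The SP1 box is common in promoters rich in G and C, and the windows of Dusp5 and Snx18 had a GC content of 66.7% and 65.3% against a median of 52.7%. A match is a description of these letters, not a site in use. The Dusp5 gene lies at chr19:53529109-53542431 on the plus strand and Snx18 at chr13:113592179-113618564 on the minus strand (GRCm38).

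The deposited libraries held 46498800 (p53+/-), 27638820 (p53 AD/-) and 54164425 (p53-/-) UMIs, with a median of 3238.5, 2484 and 3062 UMIs per kept cell. With 1 library a genotype, no test was made, differences between genotypes cannot be told apart from differences between animals or libraries, and every interval given is a 95% interval for counting error only. No doublet caller was applied, and pairs of libraries shared 15 to 29 barcodes, none of them of a Dusp5/Snx18 cell in both. Trp53, the altered gene, was counted at 86.1 CPM (counts scaled to a fixed total of UMIs of all genes) in the kept cells of p53+/-, 90.9 in p53 AD/- and 74.9 in p53-/-. What was removed or changed in the gene is not described by the labels, so these counts do not check the genotypes. The p53-/- library stood apart in some transcripts in both groups of DP cells compared below, among them Hist1h2ap and Cdk5rap1, whose values are given with the comparison of libraries. The p53 AD/- library held more cells poor in the nuclear RNA Malat1. Malat1 made up under 1% of UMIs in 19.2% of its DP cells without Dusp5 and Snx18, against 1.34% (p53+/-) and 0.913% (p53-/-). Among the 52 Dusp5/Snx18 cells of p53 AD/- that share was 9.62%. Their median Malat1 content was 6.33%, against 3.76% without the 2 genes. The p53+/- medians were 5.88% and 6.21%, and those of p53-/- 7.15% and 7.83%. Contrasts within p53 AD/- thus compare cells that differ in Malat1, and the part of this in the results was not tested.

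The cells were most frequent in the p53-/- library and rarest in p53 AD/-. They made up 11.7% (95% Clopper-Pearson interval 11.1 to 12.4) of kept cells in p53-/-, 3.55% (3.16 to 3.97) in p53+/- and 0.843% (0.630 to 1.10) in the p53 AD/- library. The intervals did not overlap, and the p53-/- share was 3.30 times that of p53+/- and 13.9 times that of p53 AD/-. Among the cells that met every part of the rule except the Dusp5 and Snx18 count, called eligible cells below, the shares were 32.9% of 3390 cells in p53-/-, 8.25% of 3505 in p53+/- and 1.96% of 2650 in the p53 AD/- library. Eligible cells themselves were 35.5%, 43.0% and 42.9% of kept cells, so the order of the shares was not that of the DP pool. These counts chose the cells, and the shares are a description.

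A rule on a minimum of UMIs takes in more cells of a deeply sequenced library, so each cell was also thinned at random to 1500 UMIs. At that depth the shares of kept cells were 7.63% in p53-/-, 1.42% in p53+/- and 0.452% in the p53 AD/- library, after 442, 240 and 634 shallower cells had been left out. The order of the libraries was the same, and p53-/- stood at 5.39 times p53+/- and 16.9 times p53 AD/-. Thinned shares of eligible cells were 19.9%, 2.99% and 1.09%.

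**Figure D1:**
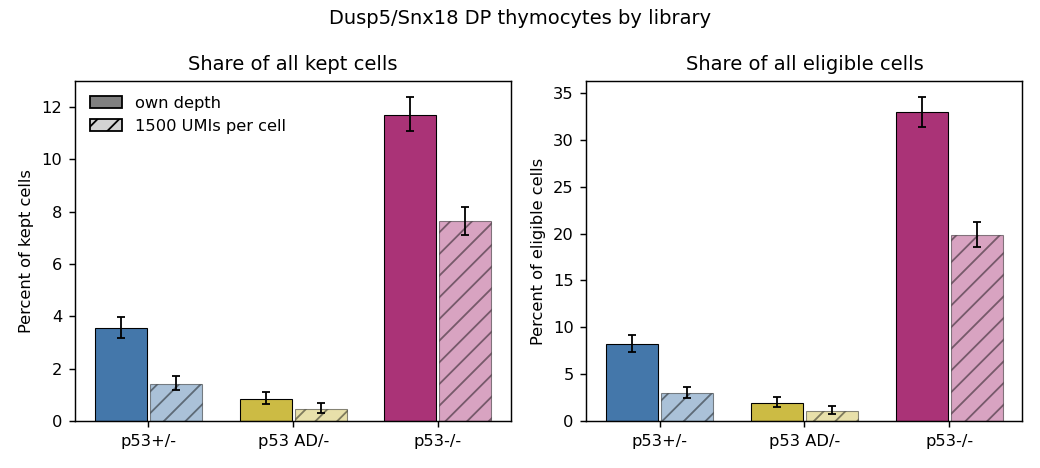
Dusp5/Snx18 DP cells as a percentage of kept cells (left) and of eligible cells (right) in each library, at its own depth (full bars) and with every cell thinned to 1500 UMIs (hatched bars); lines are 95% Clopper-Pearson intervals. The p53-/- bars are the tallest and the p53 AD/- bars the shortest in all 4 settings, for example 11.7%, 3.55% and 0.843% of kept cells at own depth.

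The set is a range cut from a continuous count, not a separate cell type. In p53+/- 68.1% of eligible cells had no UMI of the 2 genes, 23.6% had 1, 5.88% had 2, 1.46% had 3 and 0.913% had 4 or more. In p53 AD/- the same steps held 84.6%, 13.4%, 1.77%, 0.151% and 0.0377%. In p53-/- they held 38.8%, 28.3%, 15.3%, 10.1% and 7.52%, so the whole distribution lay higher there. The cells just outside the threshold, with 1 UMI, numbered 828 in p53+/-, 356 in p53 AD/- and 959 in the p53-/- library, and those just inside, with 2 UMIs, numbered 206, 47 and 519. The highest count in 1 cell was 6, 4 and 11. Cells with exactly 2 UMIs made up 71.3% of the set in p53+/-, 90.4% in p53 AD/- and 46.5% in the p53-/- library.

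**Figure D2:**
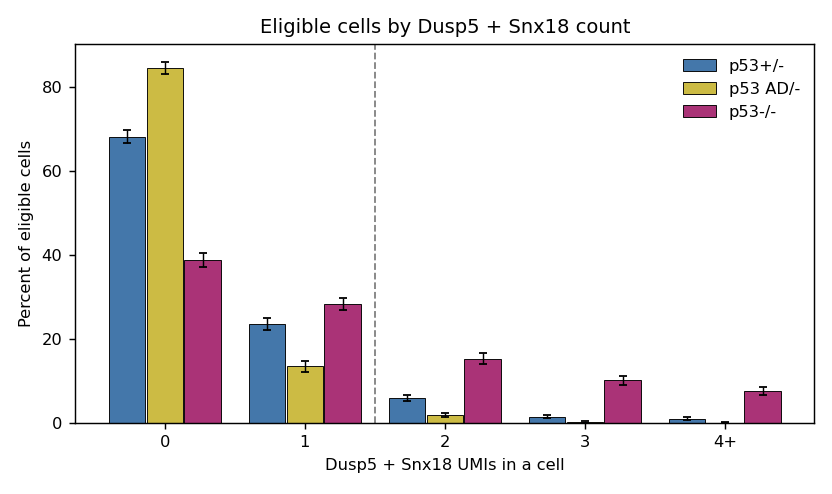
Eligible cells of each library by their count of Dusp5 and Snx18 UMIs, as a percentage with 95% Clopper-Pearson intervals; the dashed line marks the threshold of 2 UMIs. In p53-/- 38.8% of cells had none, against 68.1% in p53+/- and 84.6% in p53 AD/-, and the bars fall without a gap across the threshold.

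Dusp5 contributed more of the counts than Snx18. In p53-/- 38% of the cells had Dusp5 alone, 8.50% Snx18 alone and 53.5% both; in p53+/- the shares were 49.5%, 12.5% and 38.1%, and in p53 AD/- 63.5%, 9.62% and 26.9%. At 1500 UMIs per cell the 2 genes were found together in eligible cells 1.17 times as often as the product of their single shares in p53-/-, 1.20 times in p53+/- and 0.947 times in p53 AD/-. The variance of their summed count over its mean was 1.28, 1.15 and 1.06 in these libraries, where pure counting noise gives 1. Ly6d, for comparison, had a ratio of 3.40, 3.11 and 3.45.

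By their other genes the cells lay together only weakly. Among the 15 nearest neighbours of a Dusp5/Snx18 cell in principal components made without the genes of the rule, 40.0% were such cells in p53-/-, 11.9% in p53+/- and 2.56% in the p53 AD/- library. Around cells with no UMI of either gene, matched to them on total UMIs, the values were 35.9%, 10.5% and 2.28%. These lay between the overall shares of 32.9%, 8.25% and 1.96% and the values around the cells themselves in each library.

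Genes that the rule did not use marked the cells as DP thymocytes. At least 1 UMI of Cd4 was found in 79.9% of the cells in p53+/-, 57.7% in p53 AD/- and 72.7% in the p53-/- library. In B or myeloid cells, which lack Cd4 or carry little of it, the shares were 12.5%, 12.5% and 18.6%, although the median depth there was 8545, 8482.5 and 5565 UMIs against 3031, 2378.5 and 2519. Dntt, which adds bases at receptor joints, stood at 919, 1194 and 982 CPM, and Rag2 at 160, 191 and 106 CPM. The other genes of the label were present without setting the cells apart by 1.5-fold or more. Slc7a11 was at 184, 167 and 277 CPM and Ly6d at 356, 342 and 573 CPM. In the eligible cells without Dusp5 and Snx18, called matched cells below (2388 in p53+/-, 2242 in p53 AD/- and 1314 in the p53-/- library), Slc7a11 was at 239, 194 and 273 CPM and Ly6d at 333, 251 and 415 CPM. Slc7a11 was thus lower in the cells of p53+/-, with an interval of 159 to 213 CPM against 227 to 251 in matched cells. Ly6d in p53-/- differed by 0.47 (0.36 to 0.57) on the log2 scale, and by -0.08 over matched cells of like depth.

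Dusp5 and Snx18 were higher in the p53-/- library in every thymocyte group examined, not only in the chosen cells. Dusp5 stood at 350 CPM in eligible cells of p53-/-, 102 in p53+/- and 62.3 in p53 AD/-. Its p53-/- level was 3.42 times (3.18 to 3.68) that of p53+/- in eligible cells and 3.25 times in cycling DP cells. The ratio was 3.58 in cells with selection genes and 2.72 in mature cells. It was 1.88 (1.5 to 2.36) in Il2ra-positive cells called double negative (DN) here, after the stage before DP. These had at least 2 UMIs of Il2ra and at most 1 of Cd8a, Cd8b1 and Cd4 together. Rag1 was found in 57.9% of them in p53-/- and 62.8% in p53+/-, and other Il2ra-positive cells were not shut out. In B or myeloid cells Dusp5 was at 46.7 CPM in p53-/- and 34.8 in p53+/-, a ratio of 1.34 (0.641 to 3.01) from 70 and 32 cells. In the 48 such cells of p53 AD/- it was at 15.8 CPM. The p53-/- level was 2.95 times (1.25 to 8.04) as high as that, an interval outside equality.

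Snx18 followed the same order in eligible cells, with 172 CPM in p53-/-, 50.4 in p53+/- and 20.2 in the p53 AD/- library. The p53-/- level was 3.40 times (3.07 to 3.77) that of p53+/- in eligible cells, 2.70 times in cycling cells, 4.17 times in cells with selection genes, 1.63 times in mature cells and 2.19 times in DN cells. In B or myeloid cells the ratio was 0.768 (0.393 to 1.53), an interval that includes equal levels. Over p53 AD/-, the p53-/- level in eligible cells was 5.63 times (5.04 to 6.31) as high for Dusp5 and 8.51 times (7.02 to 10.4) for Snx18. Between p53+/- and p53 AD/- the ratios were smaller, 1.65 (1.46 to 1.86) for Dusp5 and 2.50 (2.04 to 3.09) for Snx18.

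**Figure D3:**
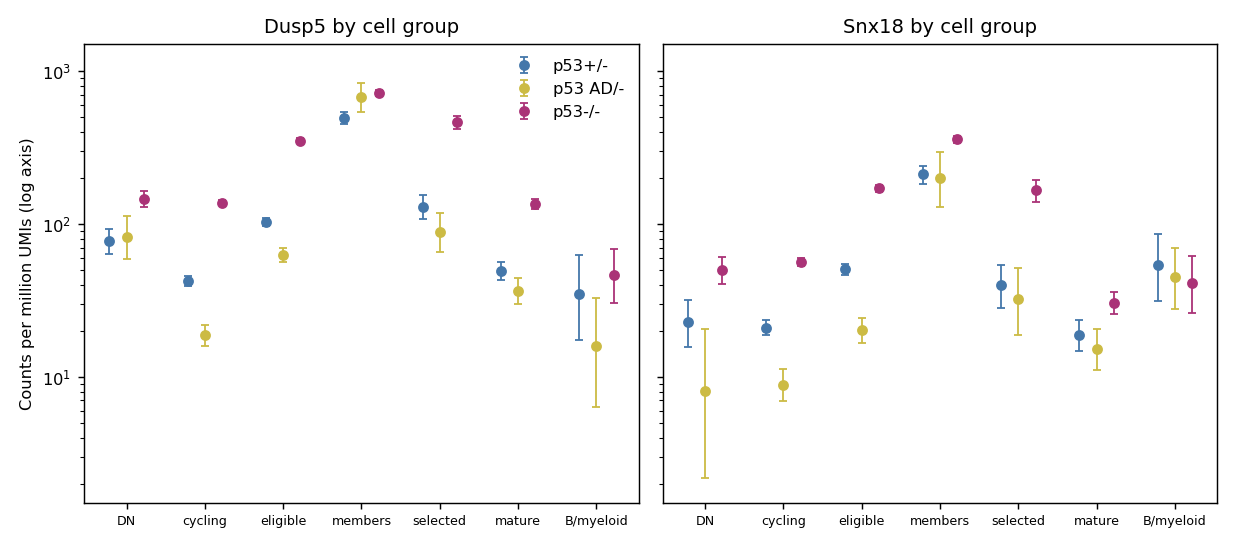
Dusp5 (left) and Snx18 (right) in CPM on a log axis for each library and cell group, with 95% Poisson intervals; eligible, cycling and selected cells are Rag1-positive and Cd8-positive, and the members were chosen on these 2 genes. The p53-/- points lie highest in DN, cycling, eligible, selected and mature cells. In eligible cells, for example, Dusp5 is at 350 CPM against 102 and 62.3. In B or myeloid cells the Snx18 intervals overlap, and the Dusp5 point is again highest in p53-/-.

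At least 2 UMIs of the 2 genes together were also found in 18.8% of 32 B or myeloid cells of p53+/-, 16.7% of 48 in p53 AD/- and 17.1% of 70 in p53-/- at the median depths given above. The shares of eligible cells in p53+/- (8.25%) and p53 AD/- (1.96%) lay below these, and are not read as expression above that level. In CPM, Dusp5 was higher in eligible than in B or myeloid cells of every library, while Snx18 was not in p53+/- (50.4 against 53.7 CPM) or p53 AD/- (20.2 against 45.2). Whether B or myeloid cells express either gene themselves was not tested.

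Outside the genes of the rule, the cells and the matched cells of the same library differed past the fold in few genes. A gene was counted where at least 10 UMIs were expected in the smaller group at equal rates, and was past the fold at a ratio of 1.5 or more with its interval outside equality. In p53+/- 129 of 7543 genes (1.71%) were higher and 109 (1.45%) lower, in p53-/- 178 of 9700 (1.84%) and 138 (1.42%), and in p53 AD/-, with 52 cells, 34 of 2074 (1.64%) and 42 (2.03%). The median log2 ratio over all genes was -0.01, 0.00 and -0.05. Of 7538 genes counted in both larger libraries, 54.9% had the same direction in both. In both, 10 genes were higher past the fold and 2 lower. The matched cells were chosen on the same counts, so these contrasts carry no test. In simulated counts, the same rule called 1.86% (p53+/-), 1.87% (p53-/-) and 2.31% (p53 AD/-) of unchanged genes, higher and lower together. Those counts held counting noise only and no spread between cells, so these shares are not a rate of false calls for the data.

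Among the 10 genes higher in both libraries were 4 genes of early signalling and stress: Junb, Fos, Sik1 and Ppp1r15a. The 10 higher and 2 lower genes are named here after their values were seen. Junb, a subunit of the AP-1 transcription factor, was at 218 CPM in the Dusp5/Snx18 cells of p53+/- and 137 in matched cells, and at 488 and 279 CPM in p53-/-. The log2 ratio was 0.67 (0.45 to 0.88) and 0.81 (0.68 to 0.93). Fos, its partner in AP-1, was at 36.9 and 22.6 CPM in p53+/- and at 65.5 and 24.8 CPM in p53-/-, log2 ratios of 0.71 (0.15 to 1.24) and 1.40 (1.0 to 1.81). In p53-/- 11.7% of the cells had a Fos UMI against 4.26% of matched cells, and 1 cell held 24 of the 203 UMIs. Sik1, a salt-inducible kinase induced by cAMP signals, was at 97.7 and 51.0 CPM in p53+/- and 147 and 86.8 in p53-/-, log2 ratios of 0.94 (0.60 to 1.27) and 0.76 (0.54 to 0.99). A Sik1 UMI was found in 27% of the cells in p53+/- and 30.6% in p53-/-, against 11.6% and 15.8% of matched cells. Ppp1r15a, whose product reverses the translation block of the integrated stress response, was at 79.7 and 52.4 CPM in p53+/- and 139 and 84.7 in p53-/-, log2 ratios of 0.61 (0.24 to 0.96) and 0.72 (0.48 to 0.95).

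The Dusp5/Snx18 cells were deeper than matched cells, with a median of 3031 against 2602.5 UMIs in p53+/-, 2378.5 against 1921.5 in p53 AD/- and 2519 against 2042 in p53-/-. Over matched cells of like depth 158 genes (2.09%) were higher and 97 (1.28%) lower in p53+/-, 156 (2.36%) and 98 (1.48%) in p53-/-, and 49 (2.4%) and 35 (1.72%) in p53 AD/-. There the log2 ratios in p53+/- and p53-/- were 0.46 and 0.46 for Junb, 0.32 and 1.18 for Fos, 0.79 and 0.28 for Sik1, and 0.56 and 0.73 for Ppp1r15a. All stayed above 0, but Junb was no longer past the fold in either library, Fos and Ppp1r15a not in p53+/- and Sik1 not in p53-/-. The share of mitochondrial counts hardly differed, with medians of 4.21% and 4.32% in p53+/- and 3.87% and 3.88% in p53-/-.

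Immediate early genes are transcribed within minutes of a signal without new protein. In p53-/-, of 17 counted members 8 were higher past the fold and none lower, with a median log2 ratio of 0.62 against 0.00 over all genes. Of all genes counted there, 1.84% were higher and 1.42% lower past the fold. In p53+/- 3 of 11 were higher (Fos, Junb and Ier5), beside 1.71% of all genes, and the median was 0.04. In p53 AD/- 0 of 4 were higher, beside 1.64% of all genes, with a median of 0.06. Nr4a1, an orphan nuclear receptor that reports T cell receptor signalling, was at 97.5 CPM in the Dusp5/Snx18 cells of p53-/- and 52.8 in matched cells, a log2 ratio of 0.88 (0.60 to 1.18). In p53+/- it was at 12.0 and 17.1 CPM, with an interval of -1.51 to 0.35 around -0.51. The difference between the libraries in these ratios was not tested. Ier5, a growth factor response gene, was at 54.8 and 32.4 CPM in p53+/- (log2 ratio 0.76), where 1 cell held 12 of its UMIs, and at 42.0 and 36.8 CPM in p53-/- (0.19). Over matched cells of like depth, 0 of 11 immediate early genes were past the fold in p53+/- and 2 of 11 in p53-/-. Those in p53-/- were Fos, and Ier2, named after its value was seen. Of all genes 2.09% and 2.36% were higher there, and the medians of the list were 0.11 and 0.46. Only 237 matched cells of like depth were at hand in p53-/-.

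**Figure D4:**
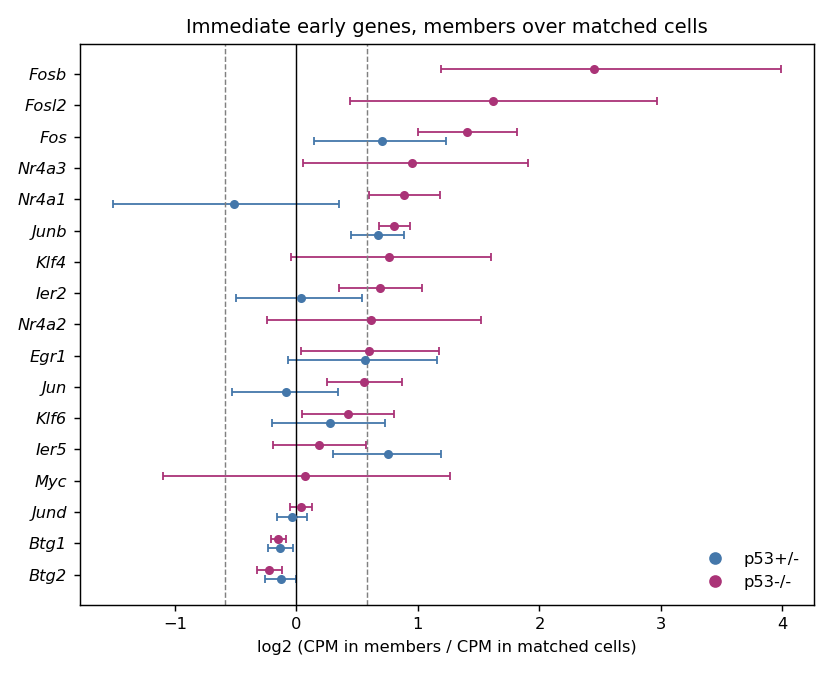
Log2 ratio of CPM in Dusp5/Snx18 cells over matched cells for the immediate early genes counted, in p53+/- and p53-/-, with 95% intervals for counting error; dashed lines mark 1.5-fold. Fos and Junb lie to the right in both libraries, Nr4a1 at 0.88 in p53-/- and at -0.51 in p53+/-.

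Several of these genes were higher step by step with the count of Dusp5 and Snx18. In p53-/- Nr4a1 was at 52.8, 58.3, 76.4, 99.8 and 129 CPM in cells with 0, 1, 2, 3 and 4 or more UMIs of the 2 genes. Fos went through 24.8, 28.0, 43.5, 69.9 and 95.5 CPM over the same steps. Which step held the cell rich in Fos UMIs named above was not examined. Junb went through 279, 385, 515, 464 and 473 CPM, and thus levelled off from 2 UMIs. In p53+/- Junb was at 137, 154, 196, 224 and 303 CPM, while Nr4a1 lay between 9.55 and 17.1 CPM with overlapping intervals. Fos in p53+/- was at 22.6, 34.4, 40.5, 38.2 and 19.8 CPM, the last from 32 cells, with no steady order. Rag1, for comparison and itself a gene of the rule, was at 2492, 2349, 2267, 2187 and 2382 CPM over the p53-/- steps. Its interval without the 2 genes (2434 to 2550) lay above those at 1 (2286 to 2412), 2 (2186 to 2350) and 3 UMIs (2095 to 2281). In p53+/- it was at 2351 CPM (2314 to 2389) without the 2 genes and at 1837 (1628 to 2066) with 4 or more UMIs, so it was lower where Junb was highest. The median depth also grew along these steps, from 2042 to 2849 UMIs in p53-/-, and its part in the trend was not tested. In p53 AD/- the last 2 steps held 4 cells and 1 cell, too few for a trend.

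**Figure D5:**
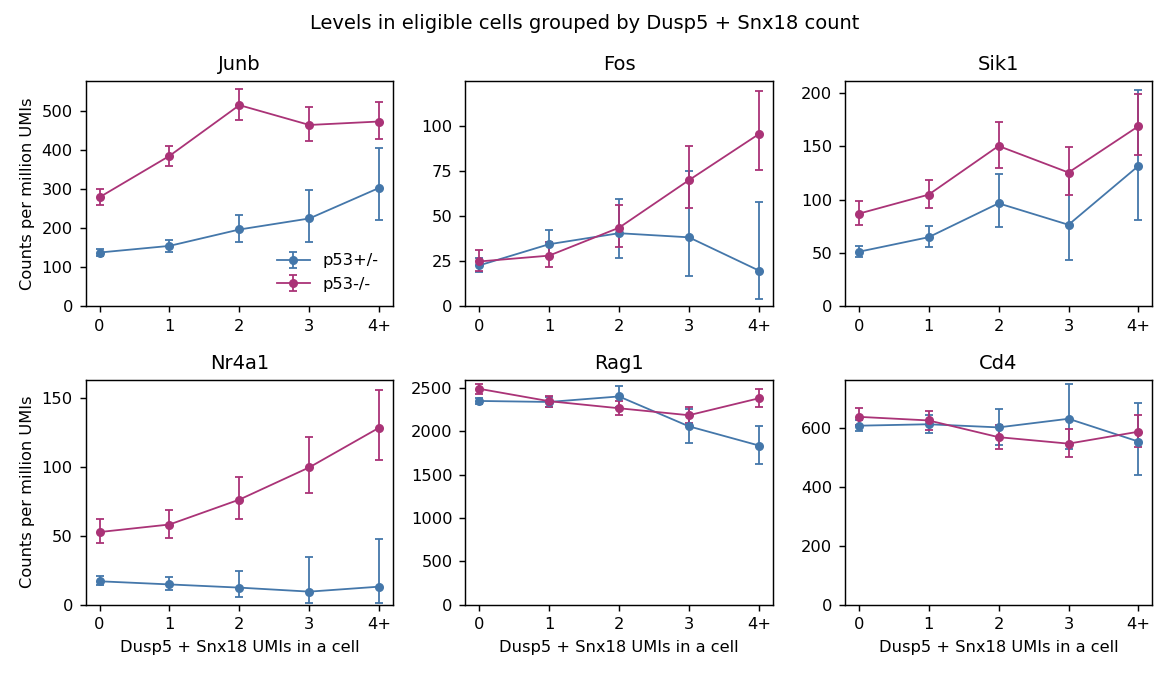
CPM of 6 genes in eligible cells grouped by their count of Dusp5 and Snx18 UMIs, in p53+/- and p53-/-, with 95% Poisson intervals. In p53-/- Nr4a1 goes from 52.8 to 129 CPM and Fos from 24.8 to 95.5. Rag1 in p53+/- goes from 2351 to 1837 CPM, and Cd4 stays between 553 and 630 CPM there.

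In p53-/-, cells that entered the set through Dusp5 and through Snx18 both had more Junb than matched cells. There Junb was at 493 CPM in cells with Dusp5 alone, 554 in those with Snx18 alone and 473 in those with both, all above the 279 CPM of matched cells with intervals apart. In p53+/- it was at 238 CPM with Dusp5 alone, 217 with both, and 136 (77.9 to 221) with Snx18 alone, against 137 in matched cells. In p53 AD/- it was at 94.5, 241 and 70.6 CPM from 33, 14 and 5 cells, against 101. In p53-/- Sik1 was at 137 CPM with Dusp5 alone, 124 with Snx18 alone and 158 with both, against 86.8 in matched cells. Its interval with Snx18 alone (85.1 to 174) overlapped that of matched cells (76.3 to 98.4). Fos in p53-/- was highest with Snx18 alone, at 131 CPM (91.3 to 182), against 64.2 with Dusp5 alone and 56.0 with both. That value rests on 35 UMIs in 95 cells, and which subset held the cell rich in Fos UMIs named above was not examined. Nr4a1 in p53-/- was lowest with Snx18 alone, at 48.7 CPM (25.9 to 83.3), against 101 with Dusp5 alone and 103 with both. Of 4124 genes counted between cells with Dusp5 alone and with Snx18 alone in p53-/-, 100 (2.42%) were higher and 120 (2.91%) lower past the fold.

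Of the feedback brakes of the ERK pathway other than Dusp5, none of 11 counted members was past the fold in p53+/- and 2 of 15 were higher in p53-/-, where 1.84% of all genes were, with medians of 0.08 and 0.15. Over matched cells of like depth 1 of 11 and 2 of 10 were higher, beside 2.09% and 2.36% of all genes, with medians of 0.33 and 0.25. Dusp1, a phosphatase of several MAP kinases, was at 71.0 and 43.9 CPM in p53-/- (log2 ratio 0.69, 0.37 to 1.02), and Dusp4 at 14.8 and 8.50 CPM (0.80, 0.06 to 1.58). In p53+/- Dusp1 was at 38.9 and 31.8 CPM (0.29). Of 22 genes of proximal T cell receptor signalling none was past the fold in p53+/-, p53-/- or, among the 15 counted there, p53 AD/-. The core of the ERK pathway had 0 of 15 in p53+/- and 1 of 16 in p53-/-, Map2k1, the kinase upstream of ERK, at 18.1 and 9.92 CPM.

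The programme of the DP stage before selection was shared by both groups of cells. None of 15 preselection genes was past the fold in p53+/- or p53-/-, with medians of -0.08 and -0.02. Satb1, a chromatin organiser of DP cells, was at 2209 and 2329 CPM in p53+/- and 2510 and 2375 in p53-/-. In p53 AD/- 1 of 15 was higher and 1 lower (Aqp11, a water channel, log2 ratio -0.71), with a median of -0.02. Variable segments of the receptor alpha locus in the part of the locus nearer to the joining segments made up 78.0% (71.8 to 83.4) of such counts in the cells of p53+/-, 80.0% (61.4 to 92.3) in p53 AD/- and 70.8% (67.0 to 74.3) in p53-/-. In matched cells the shares were 71.7%, 76.6% and 68.9%, inside these intervals in p53 AD/- and p53-/- and just under the lower bound in p53+/-. The interval of the p53+/- matched cells (69.3 to 74.0) overlapped that of the cells. Matched cells of like depth had 74.7% in p53+/-, 83.4% in p53 AD/- and 76.5% in the p53-/- library. The last lay above the interval of the cells there, but rests on 102 UMIs. Its own interval (67.0 to 84.3) overlapped that of the cells.

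The other lists, cell type markers aside, had at most 3 members past the fold in a library, beside 1.42% to 2.03% of all genes in each direction. Genes induced by p53 counted 0 of 14 in p53+/- and 1 of 15 in p53-/-, where Plk2, a polo-like kinase, had 16 UMIs. The integrated stress response counted 1 of 11 (Ppp1r15a) and 2 of 15 (Ppp1r15a and Cebpb). Amino acid transporters counted 0 of 12 in p53+/- and 1 lower of 15 in p53-/-, Slc7a1. Cystine import and glutathione genes counted 0 of 14 in p53+/- and 0 of 17 in p53-/-. In p53 AD/- 2 of 6 were lower, the peroxidases Gpx1 (-0.79) and Prdx1 (-0.72), all 6 had ratios below 0, and the median was -0.16; none of 6 was past the fold over matched cells of like depth. The 13 mitochondrially encoded genes counted none in either library. The Ly6 family counted 0 of 4 in p53+/- and 2 lower of 6 in p53-/-, Ly6a and Lypd1. Interferon-stimulated genes counted 1 of 10 in p53+/- and 3 of 12 in p53-/-, where Irf1 was higher (0.96) and Ifi27l2a (-1.82) and Ifi47 (-0.80) lower. Cycling genes counted 1 higher of 16 in p53+/-, Mcm5, and 2 lower of 22 in p53-/-, Birc5 and Rrm2.

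Of the 15 genes with the highest mean ratio over p53+/- and p53-/-, 11 were past the fold in p53+/- and 8 in p53-/-. They were Tyrobp, Plac8, Irf8, Il2ra, Fos, Rell1, Sik1, Gzma, Nrp1, Map7, Gyg, Atad3a, Mzb1, Mre11a and Cebpb. Several of them came from few barcodes. Tyrobp, an adaptor of myeloid and natural killer receptors, was at 75.7 and 2.61 CPM in p53+/- (log2 ratio 4.86) and 23.9 and 7.09 in p53-/- (1.75), but 1 cell held 74 of its 76 UMIs and 62 of 74. Plac8 was at 86.7 and 4.15 CPM in p53+/- (4.38) and 12.3 and 4.61 in p53-/- (1.41), from 4 and 12 cells. For Irf8, an interferon regulatory factor of dendritic cells, 1 cell held 49 of 52 UMIs in p53+/-, and for Il2ra, the interleukin 2 receptor alpha chain of DN cells, 26 of 33. Mre11a, which senses DNA ends, was more spread out: it was found in 12.1% of the cells and 4.65% of matched cells in p53+/- (39.9 and 18.0 CPM, log2 ratio 1.15), and in 6.62% and 3.88% in p53-/- (25.8 and 20.2 CPM, 0.35).

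Markers of other cells were counted in the same cells. The summed erythroid markers, haemoglobin genes among them, were at 1325 CPM (1254 to 1398) in the cells and 640 in matched cells of p53+/-, at 7.96 (1 UMI) and 15 in p53 AD/- and at 10.3 and 12.4 in p53-/-. Haemoglobin genes were left out of the ranking of named genes, and the part of these markers in the results was not tested. The summed myeloid and dendritic markers were at 331 CPM in the cells and 203 in matched cells of p53+/-, at 350 and 277 in p53 AD/- and at 348 and 377 in p53-/-. The defining marker Csf1r was at 0 in p53+/- and p53 AD/-, Itgax at 0 in p53 AD/- and p53-/-, and C1qa at 0 in p53 AD/-. DN markers were at 116 and 75.6 CPM in p53+/-, 39.8 and 64.8 in p53 AD/- and 131 and 95.3 in p53-/-. Markers of gamma-delta and innate-like cells were at 104 and 42.7, 23.9 and 41.4, and 54.5 and 31.2 CPM. Trdc held 83 of their 104 UMIs in the cells of p53+/- and 145 of 169 in those of p53-/-. Zbtb16 and Klrb1c were at 0 in the cells of p53+/-, and 5 of the 6 markers in those of p53 AD/-. Gzma, which is not among these markers, and Trdc were among the 10 genes higher in both libraries (log2 ratios of 1.06 and 0.62, and 1.05 and 0.76). Over matched cells of like depth they had 0.81 and 0.38, and 0.76 and 0.09, and were not past the fold in p53-/-. Barcodes with at least 5 UMIs of 15 genes of other lineages were 2 of 289 Dusp5/Snx18 cells in p53+/-, 0 of 52 in p53 AD/- and 2 of 1117 in the p53-/- library. Without them Tyrobp in p53-/- had a log2 ratio of -0.26, while the count of immediate early genes higher was 2 of 11 in p53+/- and 8 of 17 in p53-/-.

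The remaining genes higher in both libraries were Rilpl2, which acts in transport to the cilium, with 38.9 and 24.1 CPM in p53+/- (0.69) and 45.8 and 30.1 in p53-/- (0.61), and Tpm4, an actin-binding tropomyosin (0.71 and 0.75). The lower ones were Siah1a, a ubiquitin ligase, at 25.9 and 43.7 CPM in p53+/- (-0.75) and 38.4 and 58.5 in p53-/- (-0.61), and BC065403 (-0.69 and -0.70). Over matched cells of like depth Rilpl2 had 0.40 and 0.11 and Siah1a -0.47 and -0.25, past the fold in neither library, and BC065403 had -0.62 and -0.24. The 15 genes with the lowest mean ratio were Zfp286, Wdr77, Gcdh, Zfp959, Dennd5a, Homer3, Zfp994, Rmc1, Gfod2, Klhl15, Mcoln3, Kif23, Smoc1, Cipc and Smyd1. They rested on 1 to 13 UMIs in the cells of p53+/-, and 9 were past the fold there and 4 in p53-/-.

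Against the wider contrast that the rule names, Rag1-positive and Cd8-positive cells without Dusp5 and Snx18, more genes were past the fold; that group also holds cycling and selected cells. In p53+/- 453 (5.97%) were higher and 600 (7.9%) lower, in p53-/- 686 (6.89%) and 897 (9.01%), and in p53 AD/- 199 (10.1%) and 276 (14%). Slc7a11 in p53-/- had a log2 ratio of 0.67 there, against 0.02 over matched cells.

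The Dusp5/Snx18 cells were also compared between the libraries, beside their matched cells. From p53+/- to p53-/- 451 of 7697 genes (5.86%) were higher and 157 (2.04%) lower past the fold, and in matched cells 442 of 9548 (4.63%) and 186 (1.95%). The median over all genes was 0.10 here and 0.00 with median-of-ratios scaling, under which the split was 278 higher and 269 lower. Of the immediate early genes 6 of 13 were higher in p53-/- with a median of 0.61, and in matched cells 4 of 14 with a median of 0.07. Nr4a1 stood at 12.0 CPM in p53+/- and 97.5 in p53-/-, a log2 ratio of 3.03 (2.20 to 4.00), against 1.63 in matched cells. Junb had 1.16 (0.95 to 1.37) against 1.02, so this difference lay in both groups of cells. Differences between the cells and matched cells in these changes were not tested.

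Of the ERK brakes 5 of 13 were higher in p53-/- and 1 lower, beside 5.86% and 2.04% of all genes, with a median of 0.45. In matched cells the count was 0 of 14 with a median of 0.21. With TMM factors 3 brakes were higher and with median-of-ratios factors 2, with 1 lower in both. Dusp1 was at 38.9 CPM in p53+/- and 71.0 in p53-/- (0.87, against 0.47 in matched cells), Spred1 at 11.0 and 22.3 CPM (1.02), and Dusp7 at 18.9 and 7.10 CPM (-1.42). Of the amino acid transporters 3 of 13 were higher: Slc38a2, a carrier of small neutral amino acids, at 474 and 754 CPM (0.67, and 0.66 in matched cells), Slc7a11 at 184 and 277 CPM (0.59, and 0.19), and the peptide carrier Slc15a2 at 11.0 and 21.9 CPM (1.0). Slc7a11 was no longer past the fold under TMM scaling (0.53) or median-of-ratios scaling (0.48). Ly6d was at 356 and 573 CPM (0.69, and 0.32), and at 0.58 and thus not past the fold with median-of-ratios scaling. Of the genes induced by p53, 2 of 14 were higher, Fas and Ercc5, and none lower, with a median of -0.06.

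Among the lowest genes in p53-/- were some that were as low in its matched cells. Hist1h2ap, a histone of a multi-copy family whose reads may be split between copies, was at 1961 CPM in p53+/-, 2802 in p53 AD/- and 379 in the p53-/- library. Its log2 ratio of p53-/- over p53+/- was -2.37, against -2.44 in matched cells. Replication histones were lower in 6 of 13 counted members, beside 2.04% of all genes. Cdk5rap1, which modifies mitochondrial transfer RNA, had -2.12 against -2.69 in matched cells. Tnfaip8l2 was at 24.9 and 6.45 CPM (-1.95, and -0.58). Siglech, Irf8, Plac8 and Mpeg1 were also among the 8 lowest, and Lyz2, C1qa, C1qb, C1qc, Apoe, Apoc1 and Lgals3 with Nr4a1 the 8 highest. These myeloid transcripts came mostly from single barcodes: 1 p53-/- cell held 193 of 198 C1qa UMIs and 1 p53+/- cell all 31 Mpeg1 UMIs.

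In the 52 cells of p53 AD/- fewer genes could be counted. Over p53+/-, 117 of 2096 genes (5.58%) were higher and 96 (4.58%) lower, and over p53-/- 90 of 2240 (4.02%) and 200 (8.93%). In matched cells the shares were 5.58% and 9.54% over p53+/-, and 5.71% and 15.5% over p53-/-. Junb was at 135 CPM, against 218 in p53+/- and 488 in p53-/-, and its log2 ratio over p53-/- was -1.85 (-1.46 in matched cells). Sik1 was at 87.6 CPM from 11 UMIs, against 37.3 CPM in matched cells of the same library. Nr4a1 had 1 UMI. Slc7a11 was at 167 CPM, -0.73 on the log2 scale from p53-/-, and Ly6d at 342 CPM, -0.74. All 3 comparisons share libraries, and in all of them the altered allele and the library cannot be told apart.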

How the data were processed

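The deposited values were raw counts of UMIs per gene and barcode, which the authors produced with Cell Ranger (version 4.0.0, per the file headers) against GRCm38, per the submitters' processing notes. The annotation, chemistry and strand setting stand as not given in the sources used here. Barcodes with at least 500 genes and under 10% mitochondrial UMIs were kept. The members, gene lists and tests were chosen with earlier results of these data known. UMIs were summed per library and group and scaled to a common total (CPM). Ratios have exact conditional binomial intervals, CPM exact Poisson intervals and shares exact Clopper-Pearson intervals, at 95% and for counting error only. The 14 genes of the rule were left out of gene counts. A gene needed 10 UMIs expected in the smaller group at equal rates, and was past the fold at 1.5. For ranking, a floor of 3 UMIs replaced smaller counts. No test was run and no p-value is given, since each genotype is 1 library. Named genes were the 15 highest and 15 lowest by mean log2 ratio in libraries with at least 100 members and the same direction in both, the 8 highest and 8 lowest between p53-/- and p53+/-, and up to 4 members of a gene list. Mitochondrial, ribosomal, haemoglobin, receptor segment and unnamed genes were left out of this ranking. Some genes that this rule selects are not reported here. Neighbours used 1000 variable genes and 20 principal components. The scripts were checked on simulated counts. Tools were R 4.3.3 with edgeR 4.0.16 (TMM factors only), and scipy 1.17.1, numpy 2.4.6, matplotlib 3.10.9, scikit-learn 1.9.0 and pandas 2.3.3 under Python 3.11.15.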

Additional observations from a re-analysis of the deposited data

Results flagged for a closer look

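In 5 genes the log2 ratio of Dusp5/Snx18 cells over matched cells was past the fold in opposite directions in p53+/- and p53-/-; the difference was not tested. Cd74, the invariant chain of MHC class II, had 2.10 in p53+/- and -1.98 in p53-/-, with 66 of its 80 UMIs in 1 member of p53+/- and 122 of 263 in 1 matched cell of p53-/-. H2-Aa, an MHC class II chain, had 1.83 and -1.50, and H2-Ab1, its partner chain, 1.11 and -1.70. The chemokine Ccl5 had -3.71 and 1.45, with 305 of 339 UMIs in 1 matched cell of p53+/- and 31 of 54 in 1 member of p53-/-. Fbxo25, a ubiquitin ligase subunit, had -1.39 and 0.74.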

How the results depend on the processing

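No paired analysis was possible because each genotype is 1 library, and for the same reason no replicate could be left out. Counts are given in the order p53 AD/- over p53+/- and then over p53-/-, p53-/- against p53+/-, then members over matched cells in p53 AD/-, p53+/- and p53-/-; shares in the order p53 AD/-, p53+/- and p53-/-. Only values that moved by over 1.5 times (counts) or beyond their interval (shares) are listed. With Cd4 at least 1, higher genes were 74, 46 and, in members of p53 AD/-, 15, lower genes 55 and 104, and shares 0.49%, 2.83% and 8.51%. With at least 3 UMIs of Dusp5 and Snx18, higher genes were 12, 14 and (p53 AD/- members) 3, lower 20, 10 and 6, and shares 0.081%, 1.02% and 6.27%. With both genes required, higher genes were 34, 30 and 10, lower 34, 52 and 23, and shares 0.23%, 1.35% and 6.27%. With TMM factors, higher genes were 57 and (p53 AD/- members) 17, lower 161 and 85. With median-of-ratios factors p53-/- over p53+/- had 278 higher and 269 lower. Without a minimum of UMIs, higher genes were 297, 284, 213 and 370, lower 165, 317, 76 and 226. Thinned to 1500 UMIs, higher genes were 27, 26, 153, 7 and 47, lower 29, 40, 60, 16 and 44, and shares 0.45%, 1.42% and 7.63%. Over the contrast of the rule, higher genes were 199, 453 and 686, lower 276, 600 and 897. With at least 1000 genes, under 5% mitochondrial UMIs, the depth-matched contrast, high-UMI barcodes left out, means over barcodes, or other-lineage barcodes left out (added after seeing the data), no such count or share moved that far. Of named genes, 1543 values kept their side of the threshold, 161 lost and 45 gained a call, and 25 changed direction. In p53-/- members over matched cells, Tyrobp was -1.57 under 5% mitochondrial UMIs, -0.26 without other-lineage barcodes and -0.24 as a mean over barcodes. Lyz2 was -0.78, -0.59 and -0.47 there, -0.65 with both genes, -1.09 thinned and -0.11 over the contrast of the rule. Apoe was -0.33 under 5%, -0.15 without other-lineage barcodes, -0.35 with both genes and -0.25 thinned. Trdc was -0.17 and Gzma -0.47 thinned, and over the contrast of the rule -1.11 and -0.28, with Plac8 -0.47, Tpm4 -0.32 and BC065403 0.20. Mpeg1 was -0.052 as a mean over barcodes. In p53+/- over the contrast of the rule, Trdc was -0.38, Tpm4 -0.084 and BC065403 0.11. Il2ra, p53-/- over p53+/-, was 1.06 without high-UMI barcodes. The causes were not tested. Depth limits the p53 AD/- members most, with 125634 UMIs in all.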
